A study of Homo sapiens with 6 samples.

Results

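The Wnt genes described here were the 49 genes on the array that encode Wnt ligands (WNT), Frizzled receptors (FZD), the secreted Dickkopf (DKK) and secreted Frizzled-related (SFRP) antagonists, the co-receptors LRP5 and LRP6, the R-spondin receptors and ubiquitin ligases LGR4, LGR5, RNF43 and ZNRF3, and the intracellular core AXIN1, AXIN2, CTNNB1, LEF1, TCF7 and TCF7L2. The rule that picks them goes by gene name and uses no measured level. They were found among the 43317 gene names on the array, and 63 of its 58201 probes measured them. All cells were BT474, a luminal, HER2-amplified breast cancer cell line. Control cells carried empty pcDNA3.1, and BT474-Var1 cells carried pcDNA3.1-NR2F1-AS1variant1, the long transcript variant of the long noncoding RNA NR2F1-AS1. BT474-Var4 cells carried pcDNA3.1-NR2F1-AS1variant4, the short one. Each group had 2 arrays, lettered A and B, and the comparisons ask how gain of either variant changed the RNA of these genes. In the study's methods the variants were placed in different backbones, pcDNA3.1/Hygro(+) for Var1 and pcDNA3.1-P2A-eGFP for Var4. Transfected cells went through antibiotic selection, so variant, backbone and the outgrowth of surviving colonies cannot be told apart. Nothing in the labels says that the arrays of a group came from separate cultures, so the tests measure the spread between these arrays, which may be technical.

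Wnt ligands are secreted lipid-modified proteins that bind a Frizzled receptor together with LRP5 or LRP6. In the canonical branch this stops the destruction complex, built on AXIN1 and AXIN2, from degrading beta-catenin (CTNNB1), which then enters the nucleus and works with the TCF and LEF factors. DKK1 and DKK4 block LRP5 and LRP6, SFRP proteins bind the ligands, and RNF43 and ZNRF3 remove Frizzled receptors from the cell surface. The pathway is long studied in mammary stem cells and in breast cancer.

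Levels are log2 intensities relative to the 75th percentile of the same array, so that 0 is the level of a fairly bright probe and each unit is a doubling. They compare arrays for one probe and not one probe with another, and in bulk RNA fewer cells of a kind and less RNA per cell cannot be told apart. The 4 probes of the transfected NR2F1-AS1 differed by group, with every Control value between -6.62 and -3.61. The first probe read -0.42 and -0.51 and the second -0.19 and -0.22 in BT474-Var1 cells only. The third read -1.69 and -1.52 in BT474-Var1 and 3.01 and 3.02 in BT474-Var4 cells, and the fourth read 1.67 and 1.50 in BT474-Var4 cells only.

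All 12 luminal and HER2 marker genes, such as ERBB2 and GATA3, were above background on all 6 arrays, and their summed level was 11.48 and 11.501 on the BT474-Var1 arrays against 11.14 to 11.21 on the others. Single genes of this list changed, in both directions. PGR, the progesterone receptor, was 2.49-fold and 2.33-fold lower in BT474-Var4 than in Control cells on its 2 probes (adjusted p = 0.00293 and 0.00262). With Var1 these probes fell less, 1.40-fold and 1.22-fold (adjusted p = 0.0087 and 0.0187), and EPCAM fell 1.58-fold (adjusted p = 0.00523). The rises included KRT19, by 1.54-fold with Var1 (adjusted p = 0.00445). The brighter MUC1 probe also rose, 1.84-fold with Var1 and 1.55-fold with Var4 (adjusted p = 0.00345 and 0.00631), and the dimmer one did not pass. The BT474-Var4 arrays stood apart in the fibroblast list, at a summed level of 2.49 to 2.53 against 1.67 to 1.995 on the other 4 arrays. That list was led by COL1A1, with 4 of its 8 genes (COL1A2, COL3A1, LUM and THY1) above background on no array. A probe of DCN, decorin, was above background on the BT474-Var4 arrays alone, at -1.35 and -1.75 against -5.95 to -4.20 on the other 4. The other DCN probe was above background on no array. FAP was above background on the BT474-Var1 arrays alone, at -2.87 and -3.28 against -6.19 to -4.31 on the other 4. The brighter PDGFRB probe was lowest on the BT474-Var4 arrays, at -0.47 and -0.59 (adjusted p = 0.13 against Control). The BT474-Var4 arrays also stood apart in the basal list, at 1.73 to 1.77 against 0.57 to 0.66, led by OXTR, with KRT5 and ACTA2, 2 of its 6 genes, above background on no array. A KRT14 probe of the basal list was above background on both arrays of each variant and on neither Control array. This probe read -4.39 and -4.48 in Control, -3.25 and -2.93 in BT474-Var1 and -3.42 and -3.40 in BT474-Var4 cells. The other KRT14 probe did not pass in any comparison. The BT474-Var1 arrays stood apart in the endothelial list, at 1.05 and 1.16 against 1.46 to 1.64, with the brighter probe of VWF 1.83-fold lower than in Control (adjusted p = 0.00577) and 2 of its 5 genes above background on no array. The summed level of the blood cell list ran from 0.87 to 1.09, and the part of these markers in the Wnt results was not tested.

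BT474 cells held RNA of a wide but incomplete Wnt system. Of the 63 probes, 34 probes of 27 genes were well above background on all 6 arrays, and 35 to 43 probes were so on any one array. The 13 genes below background on every array were the ligands WNT2, WNT2B, WNT7A, WNT8A, WNT10A and WNT16, the receptor FZD10, the antagonists DKK2, SFRP2, SFRP4 and SFRP5, the stem cell R-spondin receptor LGR5 and the transcription factor TCF7, on both of its probes. Another 5 genes, WNT1, WNT5A, WNT5B, WNT8B and DKK4, were above background on single arrays without reaching both arrays of any group. The remaining 31 genes were tested. Their 39 probes had to be clear of background in 1 group or more, on each of its arrays. The probes of SFRP1 and WNT9B met this in BT474-Var1 cells alone and one of AXIN2 in Control cells alone, so a test of these between the groups says little, and they are given as values. By role, 9 of 10 Frizzled genes, both co-receptors and RNF43, ZNRF3 and LGR4 could be tested, against 9 of 19 ligands and 3 of 8 antagonists.

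**Figure D1:**
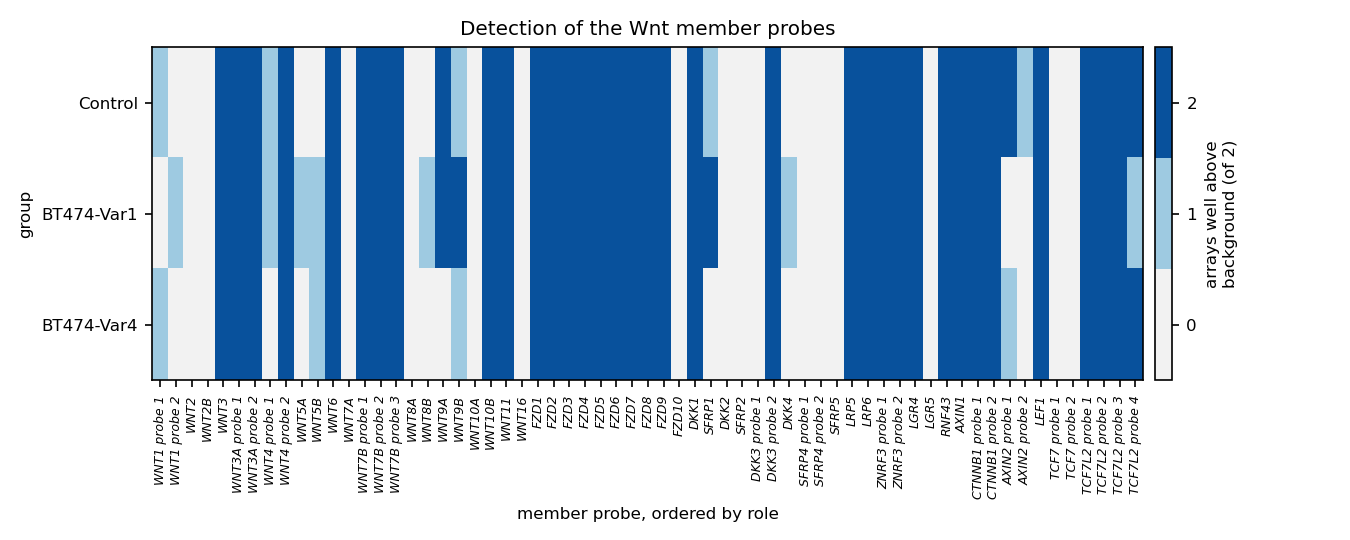
Each column is one of the 63 member probes in order of role (ligands, receptors, antagonists, co-receptors, R-spondin receptors and ligases, beta-catenin and scaffolds, transcription factors), each row a group, and the color gives how many of the group's 2 arrays were well above background. The receptors and co-receptors form an almost unbroken dark block, and ligands and antagonists hold most of the 16 probes that were above background on no array.

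The member with the brightest probe of each role was looked at in every array, although probe brightness does not rank the RNA of different genes. RNF43, a ubiquitin ligase that lowers Frizzled at the cell surface, stood at 5.77 and 5.79 in Control, 5.82 and 5.80 in BT474-Var1 and 5.88 and 5.78 in BT474-Var4 cells. All 6 arrays lay within 0.11 of each other, and the 95% interval of the BT474-Var1 difference from Control ran from -0.13 to 0.18. LRP6, the co-receptor, stood at 2.62 and 2.61 in Control, 2.54 and 2.53 in BT474-Var1 and 2.58 and 2.62 in BT474-Var4 cells, with a 95% interval of the BT474-Var1 difference from -0.21 to 0.04. For the other roles the probe with the highest mean over all 6 arrays was that of WNT11, FZD4, DKK1, CTNNB1 and LEF1, given with their roles further on. Which ligand and which transcription factor were picked depends on the group, since a WNT3A probe read higher than WNT11 in Control and BT474-Var4 cells and a TCF7L2 probe higher than LEF1 in BT474-Var4 cells.

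A probe passed the test at a Benjamini-Hochberg adjusted p under 0.05 in limma, with adjustment over all 31858 tested probes, and 26 probes of 22 Wnt genes did so in at least 1 of the 3 comparisons. In BT474-Var1 against Control cells, 21 of 39 member probes passed, which is 53.8%, against 34.4% of all tested probes. Of them, 9 were higher (23.1%, against 14.1% of all probes) and 12 lower (30.8%, against 20.3%). Across both directions, 3 were past the test and changed 2-fold or more (7.69%, against 3.94%). The median log2 change of the 39 probes was -0.14, beside -0.04 for all tested probes, but -0.26 without BT474-Var1 A, -0.08 without BT474-Var1 B, -0.25 after quantile normalization and -0.0002 with normexp background correction. The lower probes included those of FZD8, DKK1, ZNRF3 and LGR4, and the higher ones those of WNT11, LEF1 and CTNNB1. The count of 21 fell to 10 without Control A and to 13 without Control B, and to 7 with no filter on dim probes. The 9 higher probes were 2 and 4 without Control A and B and 4 and 5 without BT474-Var1 A and B, where the 12 lower were 8, 9, 10 and 11. The 21 include SFRP1 and the TCF7L2 probe at chr10:114724321-114724380, which entered the test only through groups where it is higher.

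In BT474-Var4 against Control cells, 12 of 39 passed, 30.8% against 24.2% of all probes. The 5 higher probes (12.8%, against 9.87%) and the 7 lower (17.9%, against 14.3%) were close to the shares of the whole array. Of these, 1 probe, that of WNT6, changed 2-fold or more (2.56%, against 3.17%). The 12 include WNT9A, which entered the test only through groups where it is higher. The median change was 0.05, beside -0.08 for all probes, but 0.0081 without Control A, 0.04 and 0.02 without BT474-Var4 A and B, 0.0032 with normexp and 0.11 after quantile normalization. The count of 12 fell to 5 without any one Control or BT474-Var4 array and to 3 with no filter (2 to 3 higher and 2 to 3 lower without an array), and the 2-fold count was 2 without either BT474-Var4 array and 0 with normexp.

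BT474-Var4 against BT474-Var1 cells gave 21 of 39, or 53.8% against 41.2%, of which 14 were higher in BT474-Var4 cells (35.9%, against 20.4%) and 7 lower (17.9%, against 20.8%). After quantile normalization these were 17 and 5. The median change was 0.14, beside -0.03 for all probes, but 0.32 after quantile normalization and 0.08 with normexp. The 7 probes past the test and 2-fold in this comparison (17.9%, against 6.86%) belonged to WNT4, WNT6, WNT11, FZD2, FZD8, DKK1 and LEF1, and no other member reached 2-fold with a passed test in any comparison. The 21 include SFRP1, WNT9A and the TCF7L2 probe at chr10:114724321-114724380, which entered the test only through groups where they are higher. The count of 21 was 9 with no filter. The 14 higher were 9 without BT474-Var4 B or BT474-Var1 B, and the 2-fold count was 3 with normexp. Both comparisons with Control share the Control arrays, so values are given side by side and the overlap of the lists is not used. The BT474-Var1 arrays lay in another row of their slide than the other 4 arrays, and row and BT474-Var1 cannot be told apart.

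**Figure D2:**
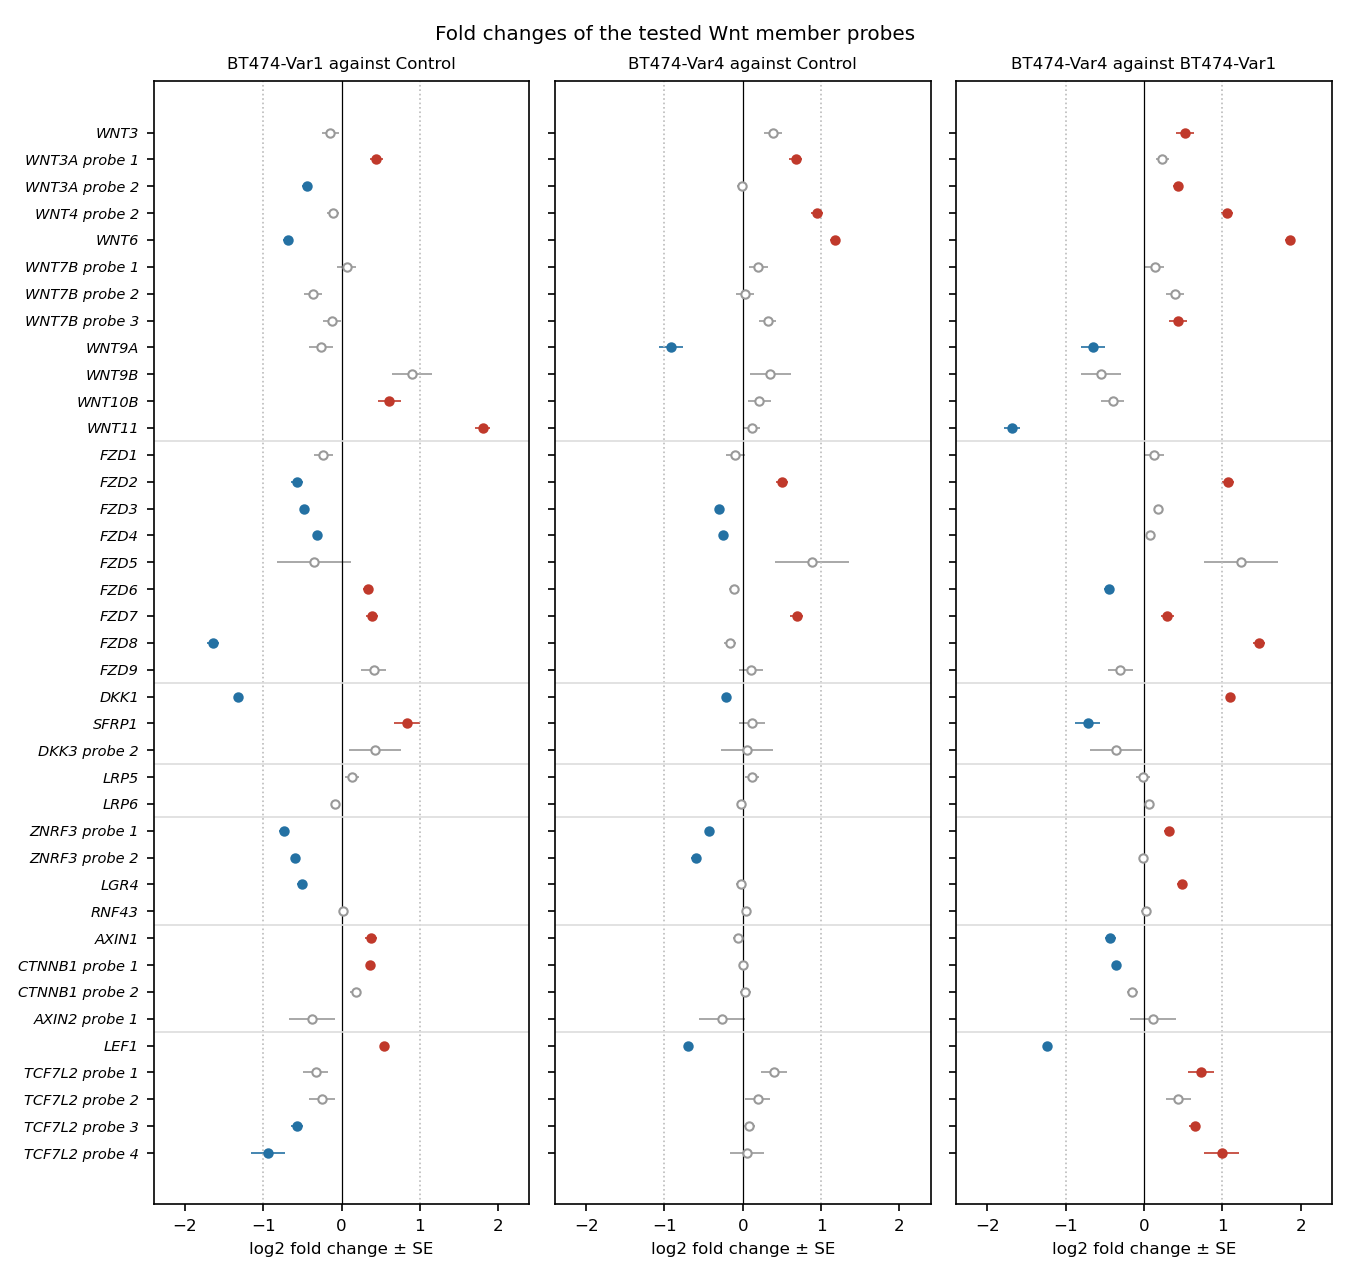
Each row is one of the 39 tested member probes, grouped by role with grey lines between roles, and the x axes give the log2 fold change with its standard error in the 3 comparisons. Red and blue points passed the test as higher and lower, open grey points did not, and dotted lines mark 2-fold. In BT474-Var1 against Control cells WNT11 lies far to the right at 1.80 and FZD8 and DKK1 far to the left at -1.64 and -1.32, whereas in BT474-Var4 against Control cells only WNT6 passes the dotted line.

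Among the ligands, WNT11, WNT6 and WNT4 moved most. WNT11 stood apart in BT474-Var1 cells, WNT4 in BT474-Var4 cells and WNT6 in both. WNT11, a ligand best known for beta-catenin-independent signaling (probe at chr11:75897586-75897645 of hg19, minus strand), read -0.05 and 0.15 in Control, 1.81 and 1.89 in BT474-Var1 and 0.08 and 0.25 in BT474-Var4 cells. Only the BT474-Var1 arrays were high, and the level rose by 1.80 ± 0.10 (SE) against Control (3.48-fold, adjusted p = 0.00305). The BT474-Var4 arrays overlapped Control (0.11 ± 0.10, adjusted p = 0.456), and BT474-Var4 was 3.22-fold lower than BT474-Var1 (adjusted p = 0.00164). WNT6, a ligand of epithelial development (chr2:219738852-219738911, plus strand), read -1.08 and -1.03 in Control, -1.71 and -1.76 in BT474-Var1 and 0.18 and 0.06 in BT474-Var4 cells. It therefore moved in opposite directions, falling 1.60-fold in BT474-Var1 (log2 change -0.68 ± 0.07, adjusted p = 0.00522) and rising 2.26-fold in BT474-Var4 cells (1.18 ± 0.07, adjusted p = 0.00332). The variants differed 3.63-fold (log2 difference 1.86, adjusted p = 0.0012). With normexp the log2 changes kept their direction and passed at -0.29, 0.73 and 1.02.

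WNT4, the ligand that progesterone induces in the mammary gland (chr1:22443798-22443857, minus strand), read -2.05 and -2.07 in Control, -2.21 and -2.12 in BT474-Var1 and -1.02 and -1.19 in BT474-Var4 cells. It rose in BT474-Var4 cells by 0.95 ± 0.08 (1.93-fold, adjusted p = 0.00551). BT474-Var1 differed from Control by -0.11 ± 0.08 (adjusted p = 0.348), and BT474-Var4 was 2.08-fold above BT474-Var1 (adjusted p = 0.00225). The other WNT4 probe (chr1:22453813-22453872) was above background on 2 of 6 arrays, with levels from -4.74 to -3.66, and was not tested. With normexp the WNT4 rise was 0.33 and the difference between the variants 0.31, both past the test. The calls of WNT11, WNT6 and WNT4 held without any one array.

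The remaining ligand calls were smaller. WNT10B, a canonical ligand of mammary epithelium, read -2.15 and -1.74 in Control, -1.28 and -1.39 in BT474-Var1 and -1.76 and -1.71 in BT474-Var4 cells. It rose in BT474-Var1 cells by 0.61 ± 0.15 (adjusted p = 0.0373). That call was lost without any one array but Control B, at adjusted p up to 0.137, and after quantile normalization (0.0545). WNT9A read -3.68 and -3.37 in Control and -3.63 and -3.95 in BT474-Var1 cells, and -4.41 and -4.46 in BT474-Var4 cells, where neither array was well above background. On the scale used here it was at least 1.30-fold lower in BT474-Var4 than in Control. The log2 change itself was -0.91 (adjusted p = 0.0214). That call was lost without any one of the 4 arrays compared and with normexp (log2 change -0.12, adjusted p = 0.0799). WNT9A was also at least 1.08-fold lower than in BT474-Var1 cells, with a log2 change of -0.65 (adjusted p = 0.0306). This second call was lost without either BT474-Var4 array or BT474-Var1 A, and after quantile normalization (adjusted p = 0.315). The probe entered the test through the groups where it is higher, so its passed tests are given no weight. In such bounds a dim array counts at no less than its dimmest probe well above background.

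WNT3, a canonical ligand first found as a mammary tumor virus insertion site in mice, read -2.00 and -1.74 in Control, -2.07 and -1.94 in BT474-Var1 and -1.42 and -1.54 in BT474-Var4 cells. BT474-Var4 exceeded BT474-Var1 by 0.53 ± 0.11 (adjusted p = 0.0236; up to 0.0968 without any one of these 4 arrays). Of the 3 WNT7B probes, the one at chr22:46318943-46319002 read -1.82 and -1.94 in Control, -1.87 and -2.14 in BT474-Var1 and -1.51 and -1.62 in BT474-Var4 cells. It was higher in BT474-Var4 cells than in BT474-Var1 ones by 0.44 ± 0.11 (adjusted p = 0.0392; up to 0.142 without any one array but BT474-Var1 A, and 0.121 with normexp). The other WNT7B probes differed by 0.14 and 0.40 in the same comparison and did not pass. WNT9B, above background on both arrays in BT474-Var1 cells only, did not pass in any comparison, and read -4.35 and -4.03 in Control, -3.16 and -3.42 in BT474-Var1 and -3.52 and -4.16 in BT474-Var4 cells.

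**Figure D3:**
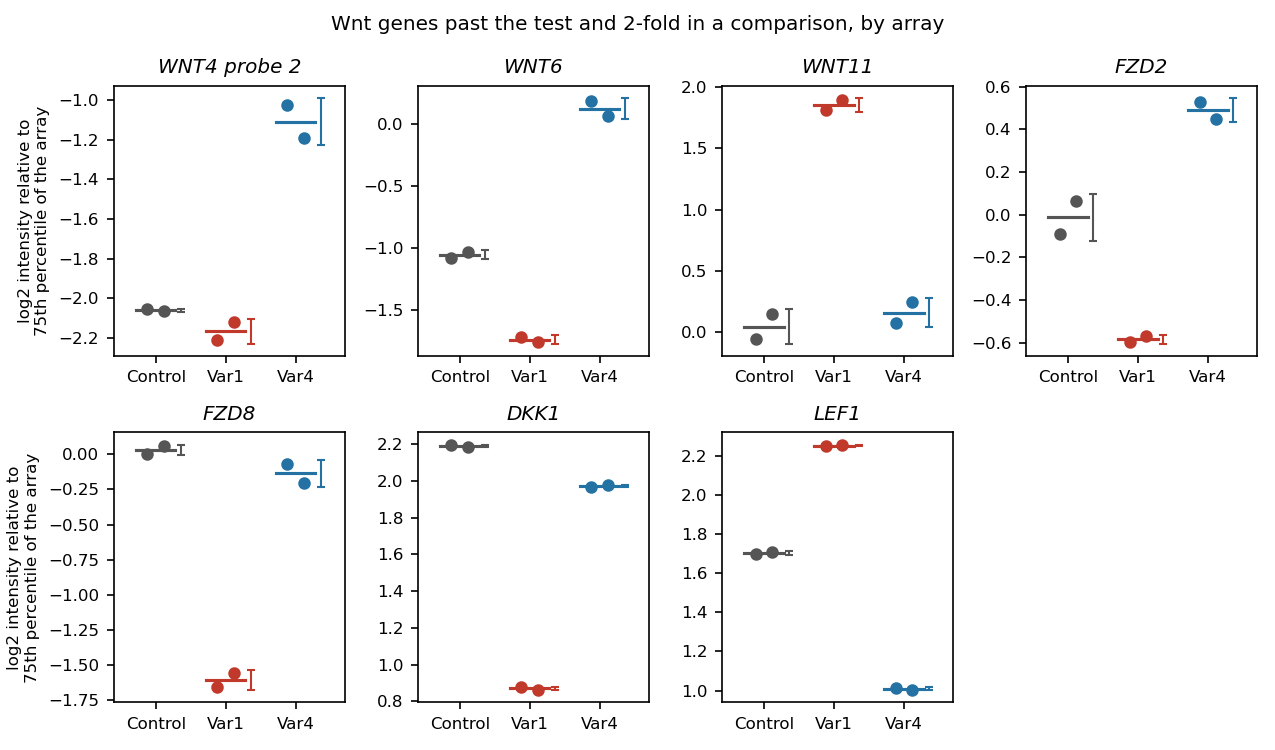
Each panel is one of the 7 genes past the test and 2-fold in a comparison, with the log2 level of each of the 6 arrays as a point, the group mean as a line and the SD of the 2 arrays as a bar beside it, and the y axes differ between panels. WNT11, FZD8 and DKK1 stand apart in BT474-Var1 cells and WNT4 (probe 2, at chr1:22443798-22443857) in BT474-Var4 cells. WNT6, FZD2 and LEF1 differ in all 3 groups, as does DKK1, with a small step between Control and BT474-Var4 cells.

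Of the 9 tested Frizzled receptors, 4 fell and 2 rose in BT474-Var1 cells, where 20.3% of all tested probes fell and 14.1% rose. In BT474-Var4 cells 2 fell and 2 rose, beside 14.3% and 9.87%, and nothing about the family as a whole is read from these counts. FZD8, a Frizzled receptor (chr10:35927378-35927437, minus strand), read 0.00 and 0.06 in Control, -1.66 and -1.56 in BT474-Var1 and -0.07 and -0.20 in BT474-Var4 cells. It fell 3.11-fold in BT474-Var1 cells (log2 change -1.64 ± 0.07, adjusted p = 0.00269), or by 0.86 on the log2 scale with normexp, still past the test. It differed from Control by -0.17 ± 0.07 in BT474-Var4 cells (adjusted p = 0.177), and was 2.77-fold higher in BT474-Var4 cells than in BT474-Var1 ones (adjusted p = 0.00133). FZD2, another member of the family (chr17:42636610-42636669, plus strand), read -0.09 and 0.06 in Control, -0.60 and -0.57 in BT474-Var1 and 0.53 and 0.45 in BT474-Var4 cells. Like WNT6 it went down in BT474-Var1 (-0.57 ± 0.07, adjusted p = 0.00882) and up in BT474-Var4 cells (0.50 ± 0.07, adjusted p = 0.0165), 2.10-fold apart (adjusted p = 0.00205). The BT474-Var4 rise was lost without any one of the 4 arrays compared (adjusted p up to 0.0713).

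FZD7, a receptor known from basal-like breast cancer, read -1.25 and -1.38 in Control, -0.85 and -1.001 in BT474-Var1 and -0.61 and -0.64 in BT474-Var4 cells. It rose in both, by 0.39 ± 0.08 (adjusted p = 0.0252) and 0.69 ± 0.08 (adjusted p = 0.0103), and the variants differed by 0.30 ± 0.08 (adjusted p = 0.0432). The first of these calls was lost without any one array but BT474-Var1 B (adjusted p up to 0.107), the second without Control B, BT474-Var4 A or BT474-Var4 B (up to 0.0598), and the third without any one array (up to 0.144). FZD4, the receptor of Norrin as well as of Wnt ligands, read 2.92 and 2.93 in Control, 2.60 and 2.61 in BT474-Var1 and 2.68 and 2.68 in BT474-Var4 cells. Its falls of 0.32 ± 0.05 (adjusted p = 0.0111) and 0.25 ± 0.05 (adjusted p = 0.0275) on the log2 scale were small but clear of the replicate spread. The BT474-Var1 call was lost without any one of the 4 arrays compared (up to 0.0642), and the BT474-Var4 call without any one array (up to 0.122).

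FZD3, a receptor of planar cell polarity, read 1.02 and 0.98 in Control, 0.50 and 0.55 in BT474-Var1 and 0.70 and 0.71 in BT474-Var4 cells. It fell in both, by 0.47 ± 0.05 (adjusted p = 0.00624) and by 0.30 ± 0.05 (adjusted p = 0.0228) on the log2 scale, the latter lost without any one of the 4 arrays compared (up to 0.110). FZD6, also of planar cell polarity, read 0.28 and 0.33 in Control, 0.70 and 0.59 in BT474-Var1 and 0.20 and 0.19 in BT474-Var4 cells. The BT474-Var1 arrays lay above the rest, by 0.34 ± 0.06 over Control (adjusted p = 0.0194; up to 0.0961 without either Control array or BT474-Var1 A) and by 0.45 over BT474-Var4 cells (adjusted p = 0.00808). FZD1, FZD5 and FZD9 did not pass in any comparison. The FZD5 arrays of BT474-Var4 cells disagreed, at -0.56 and 0.79, so that the 95% interval of their difference from Control ran from -0.36 to 2.13.

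Of the antagonists, DKK1 was the only one well above background in every group with a passed test. DKK1, which binds LRP5 and LRP6 and is itself a target of beta-catenin (chr10:54076687-54076746, plus strand), read 2.20 and 2.19 in Control, 0.88 and 0.86 in BT474-Var1 and 1.97 and 1.98 in BT474-Var4 cells. It fell 2.50-fold in BT474-Var1 cells (log2 change -1.32 ± 0.05, adjusted p = 0.0023) and was 2.15-fold higher in BT474-Var4 cells than in BT474-Var1 ones (adjusted p = 0.0012). The BT474-Var4 change from Control was -0.22 ± 0.05 (adjusted p = 0.0371) and was lost without any one array (up to 0.149). SFRP1, whose loss is frequent in breast cancer, lay near background, at -4.61 and -4.36 in Control (1 of 2 arrays above background), -3.80 and -3.50 in BT474-Var1 and -4.51 and -4.23 in BT474-Var4 cells (0 of 2). The BT474-Var1 arrays lay above the rest, but the probe entered the test through that group alone, so its passed tests are given no weight. One of 2 DKK3 probes was tested, with levels from -3.50 to -2.39, and did not pass in any comparison.

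At the receptor complex itself, LRP5 and LRP6 gave no passed test: the differences from Control were 0.13 ± 0.09 and -0.08 ± 0.05 in BT474-Var1 and 0.12 ± 0.09 and -0.02 ± 0.05 in BT474-Var4 cells. ZNRF3, the partner of RNF43 and a target of the pathway, passed on both probes. Its probe at chr22:29449612-29449671 read 3.43 and 3.46 in Control, 2.87 and 2.84 in BT474-Var1 and 2.81 and 2.88 in BT474-Var4 cells. It fell by 0.59 ± 0.05 (adjusted p = 0.00485) and by 0.60 ± 0.05 (adjusted p = 0.00601) on the log2 scale, or 1.50-fold and 1.52-fold. The probe at chr22:29452861-29452920 read 0.21 and 0.26 in Control, -0.50 and -0.51 in BT474-Var1 and -0.25 and -0.13 in BT474-Var4 cells. It fell by 0.74 ± 0.06 (adjusted p = 0.00457) and by 0.43 ± 0.06 (adjusted p = 0.0162). ZNRF3 was thus lower in both populations on both probes, whereas the variants differed past the test on the latter probe alone, by 0.31 ± 0.06 (adjusted p = 0.0197). The last fall was lost without either Control array or BT474-Var4 A (up to 0.0884), and the difference between the variants without BT474-Var4 B, BT474-Var1 A or BT474-Var1 B (up to 0.0777). LGR4, a receptor of R-spondins, read 2.32 and 2.25 in Control, 1.83 and 1.73 in BT474-Var1 and 2.28 and 2.25 in BT474-Var4 cells. It fell in BT474-Var1 cells by 0.51 ± 0.06 (adjusted p = 0.0081; 0.0513 without Control A), 1.40-fold below BT474-Var4 cells (adjusted p = 0.00712).

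Inside the cell, LEF1 changed in opposite directions. LEF1, the DNA-binding partner of beta-catenin (chr4:108968746-108968805, minus strand), read 1.70 and 1.71 in Control, 2.25 and 2.25 in BT474-Var1 and 1.02 and 1.00 in BT474-Var4 cells. Its replicate arrays agreed within 0.02, and it rose 1.46-fold in BT474-Var1 cells (0.55 ± 0.05, adjusted p = 0.00461) and fell 1.62-fold in BT474-Var4 cells (-0.69 ± 0.05, adjusted p = 0.00413). The 2.36-fold difference between the variants (adjusted p = 0.0012) held without any one array. CTNNB1, beta-catenin, read 4.29 and 4.31 in Control, 4.63 and 4.69 in BT474-Var1 and 4.30 and 4.31 in BT474-Var4 cells on its brighter probe (chr3:41281749-41281808). That probe rose in BT474-Var1 cells by 0.36 ± 0.05 (adjusted p = 0.00972; up to 0.0605 without either Control array), and BT474-Var4 lay 0.35 below BT474-Var1 (adjusted p = 0.00834). The other probe (chr3:41280687-41280746) differed from Control by 0.18 ± 0.07 in BT474-Var1 cells (adjusted p = 0.108).

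AXIN1, a scaffold of the destruction complex, read 0.40 and 0.43 in Control, 0.80 and 0.78 in BT474-Var1 and 0.28 and 0.44 in BT474-Var4 cells. It rose in BT474-Var1 cells by 0.38 ± 0.07 (adjusted p = 0.0214; up to 0.0999 without any one of the 4 arrays compared). It was 1.35-fold lower in BT474-Var4 cells than in BT474-Var1 ones (adjusted p = 0.0129; up to 0.0588 without either BT474-Var1 array). AXIN2, its paralog and the most widely used readout of beta-catenin activity, was near background. The tested probe had levels from -4.52 to -3.58, above background on both Control arrays and on none of BT474-Var1, and did not pass in any comparison. The other probe was above background on 1 of 6 arrays. TCF7L2, the main TCF factor of many epithelia, was measured by 4 probes that did not all give the same calls.

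The sequences of the 2 WNT3A probes and the 4 TCF7L2 probes are shown because the probes of each gene did not all give the same changes. The first 30 of the 60 bases are given, with hg19 positions of the whole probe, all on the plus strand; no letters are marked.
WNT3A, chr1:228248893-228248952: ctctgcctcaaattctgcgtttttggtttt
WNT3A, chr1:228247946-228248005: catccccaaccccctgtaaggttccatcca
TCF7L2, chr10:114724321-114724380: tttcagtccggcagcacacattactctgcg
TCF7L2, chr10:114905803-114905862: aggattcagacacccctaccccacagctct
TCF7L2, chr10:114911485-114911544: aagcatcaggactccaaaaaggaagaagaa
TCF7L2, chr10:114925978-114926037: ttaaagtctttgtagcgtttaaaaaatata

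The WNT3A probes, for a canonical ligand, went opposite ways in BT474-Var1 cells. The probe at chr1:228248893-228248952 read -1.64 and -1.46 in Control, -1.15 and -1.05 in BT474-Var1 and -0.86 and -0.88 in BT474-Var4 cells. It rose by 0.45 ± 0.08 (adjusted p = 0.0189) and by 0.68 ± 0.08 (adjusted p = 0.0111). The probe at chr1:228247946-228248005 read 0.43 and 0.38 in Control, -0.09 and 0.01 in BT474-Var1 and 0.35 and 0.44 in BT474-Var4 cells. It fell by 0.44 ± 0.07 in BT474-Var1 cells (adjusted p = 0.0113). Its BT474-Var4 difference was -0.01 ± 0.07 from Control and 0.43 ± 0.07 from BT474-Var1 (adjusted p = 0.00978). No direction can therefore be given for WNT3A in BT474-Var1 cells. The first probe lost its calls without Control A or either array of the variant compared (up to 0.0802 for BT474-Var1 and 0.0571 for BT474-Var4), and the second lost the BT474-Var1 call without either Control array or BT474-Var1 A (up to 0.0662).

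All 4 TCF7L2 probes lay lower on average in BT474-Var1 than in BT474-Var4 cells, and 3 of these differences passed. They include that of a probe that entered the test only through the groups where it is higher. The probe at chr10:114905803-114905862 read 1.52 and 1.38 in Control, 0.86 and 0.91 in BT474-Var1 and 1.48 and 1.58 in BT474-Var4 cells. It fell by 0.56 ± 0.07 in BT474-Var1 cells (adjusted p = 0.00895), 1.56-fold below BT474-Var4 (adjusted p = 0.00531). The array's annotation named 0 RefSeq mRNAs for this probe and 2 to 4 for each other TCF7L2 probe. The probe at chr10:114724321-114724380 read -2.53 and -2.63 in Control, -3.81 (not above background) and -3.22 in BT474-Var1 and -2.65 and -2.40 in BT474-Var4 cells. It fell by 0.94 ± 0.22 (adjusted p = 0.0346; up to 0.136 without any one array but BT474-Var1 B, and 0.162 with normexp). It lay 0.99 ± 0.22 higher in BT474-Var4 cells than in BT474-Var1 ones (adjusted p = 0.026; up to 0.107 without any one Control or BT474-Var4 array, and 0.142 with normexp). This probe entered the test through Control and BT474-Var4 cells, where it is higher, so its passed tests say little. The probe at chr10:114925978-114926037 read -1.78 and -1.91 in Control, -2.07 and -2.29 in BT474-Var1 and -1.64 and -1.25 in BT474-Var4 cells. The difference between the variants was 0.73 ± 0.16 (adjusted p = 0.0265; up to 0.104 without any one array but BT474-Var4 A). The probe at chr10:114911485-114911544 gave 0.44 ± 0.16 there (adjusted p = 0.095).

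**Figure D4:**
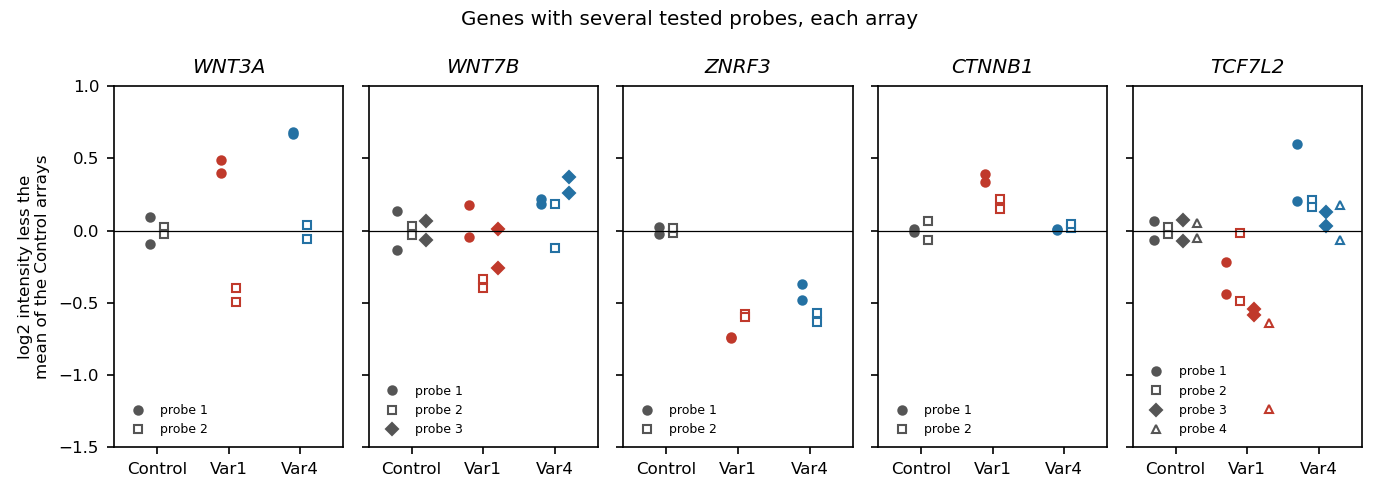
Each panel is a gene with several tested probes, each symbol a probe on one array, and the y axis the log2 level less the mean of the Control arrays of that probe. Probe 1 is the one at chr1:228248893-228248952 for WNT3A, at chr22:29452861-29452920 for ZNRF3 and at chr3:41281749-41281808 for CTNNB1, and the TCF7L2 probes 1 to 4 are in order of falling position. The WNT3A symbols split above and below 0 in BT474-Var1 cells, the ZNRF3 symbols lie below 0 in both variants, and the TCF7L2 symbols lie at or below 0 in BT474-Var1 cells.

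Promoter sequence was read for the 2-fold genes that the RefSeq table of GRCh38.p14 holds, WNT4, WNT6, FZD8, DKK1 and LEF1, because FZD8 and DKK1 fell together in BT474-Var1 cells, WNT4 and WNT6 rose together in BT474-Var4 cells and LEF1 moved both ways. The 250 bases before the annotated start are given in the direction of transcription, with capitals for CTTTGA, the core letters that TCF and LEF factors are known to bind, or its reverse complement TCAAAG.
WNT4, chr1:22143098-22143347, minus strand: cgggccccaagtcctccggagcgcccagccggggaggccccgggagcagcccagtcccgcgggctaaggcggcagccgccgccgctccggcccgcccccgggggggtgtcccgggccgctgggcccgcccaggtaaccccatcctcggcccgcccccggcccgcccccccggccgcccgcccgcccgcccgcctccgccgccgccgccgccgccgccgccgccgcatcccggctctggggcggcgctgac
WNT6, chr2:218859555-218859804, plus strand: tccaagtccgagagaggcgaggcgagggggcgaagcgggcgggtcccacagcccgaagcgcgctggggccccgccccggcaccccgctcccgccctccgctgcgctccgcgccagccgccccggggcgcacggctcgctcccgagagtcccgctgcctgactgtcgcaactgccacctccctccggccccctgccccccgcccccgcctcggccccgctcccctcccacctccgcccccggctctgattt
FZD8, chr10:35642297-35642546, minus strand: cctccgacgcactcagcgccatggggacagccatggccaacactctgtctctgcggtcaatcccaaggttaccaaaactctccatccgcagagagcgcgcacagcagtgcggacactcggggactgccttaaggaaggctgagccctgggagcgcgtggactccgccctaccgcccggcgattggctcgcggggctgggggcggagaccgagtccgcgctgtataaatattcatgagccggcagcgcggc
DKK1, chr10:52314031-52314280, plus strand: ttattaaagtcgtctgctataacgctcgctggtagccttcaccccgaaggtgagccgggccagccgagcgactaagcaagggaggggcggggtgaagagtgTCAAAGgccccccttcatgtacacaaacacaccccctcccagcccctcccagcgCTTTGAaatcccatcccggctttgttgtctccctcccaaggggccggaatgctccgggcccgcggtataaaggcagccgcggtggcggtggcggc
LEF1, chr4:108166302-108166551, minus strand: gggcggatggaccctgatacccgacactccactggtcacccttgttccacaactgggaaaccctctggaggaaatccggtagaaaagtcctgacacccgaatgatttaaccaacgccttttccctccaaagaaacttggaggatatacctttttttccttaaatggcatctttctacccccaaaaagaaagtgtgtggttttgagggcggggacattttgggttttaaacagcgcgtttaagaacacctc
DKK1 held 2 matches, 1 on each strand, and the other 4 held none in these windows. Of the 33 member genes in the table, DKK1 alone had a match (3.03%), and over all 35116 promoters of the table the motif was present in 3937 (11.2%). A match is a run of letters and not a measured binding site, and its absence from a window says nothing of the factor.

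Beyond the members, 73 other Wnt pathway genes on the array, from lists of secretion, receptor, antagonist, Dishevelled, destruction complex, nuclear, planar polarity and target genes, gave 77 tested probes of 57 genes. In BT474-Var1 cells 8 of the 77 were higher and 18 lower than in Control, where 14.1% and 20.3% of all tested probes on the array were so. In BT474-Var4 cells these were 9 and 6 of the 77, beside 9.87% and 14.3% of all tested probes. Between the variants 20 of the 77 were higher and 13 lower in BT474-Var4 cells, beside 20.4% and 20.8% of all tested probes. The median changes of the 77 were -0.07, -0.03 and 0.04, and nothing about the lists as a whole is read from these counts. KREMEN1, a receptor through which DKK1 acts on LRP6, fell in both populations. Its brighter probe read 2.55 and 2.54 in Control, 1.36 and 1.27 in BT474-Var1 and 1.48 and 1.45 in BT474-Var4 cells, log2 changes of -1.23 ± 0.06 (adjusted p = 0.00269) and -1.08 ± 0.06 (adjusted p = 0.00318). A further KREMEN1 probe also fell 2-fold or more in both, but with normexp its log2 change was -0.42 in both, still past the test. The remaining KREMEN1 probe did not pass. TCF7L1, a mostly repressive TCF factor, read 1.09 and 1.19 in Control, 0.05 and -0.09 in BT474-Var1 and 1.24 and 1.14 in BT474-Var4 cells. It fell in BT474-Var1 cells (-1.16 ± 0.08, adjusted p = 0.00375), with a BT474-Var4 difference of 0.05 ± 0.08. SP5, a direct target of beta-catenin, rose in BT474-Var1 cells by 1.11 ± 0.06 (adjusted p = 0.00305) and in BT474-Var4 cells by 0.41 ± 0.06 (adjusted p = 0.0172). With normexp the SP5 rise in BT474-Var1 cells was 0.48, still past the test.

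EPHB2, a beta-catenin target in intestine, was not well above background on either array of BT474-Var1 cells with the probe that changed most. On the scale used here this probe was at least 2.41-fold lower than in Control and at least 3.99-fold lower than in BT474-Var4 cells. It entered the test through those groups, where it is higher, so its passed tests are given no weight. With normexp its log2 differences were -0.19 for BT474-Var1 from Control and 0.37 for BT474-Var4 from BT474-Var1. A second EPHB2 probe, above background on 1 of 2 BT474-Var1 arrays, read -2.55 and -2.83 in BT474-Var4 and -3.96 and -3.97 in BT474-Var1 cells (adjusted p = 0.00276), a log2 difference of 1.28 ± 0.11 that was 0.13 with normexp. The brightest EPHB2 probe, above background on all 6 arrays, changed less. In BT474-Var1 cells it was 1.66-fold below Control (adjusted p = 0.00577) and 1.80-fold below BT474-Var4 cells (adjusted p = 0.00308). APCDD1, a membrane-bound antagonist, was higher in BT474-Var4 cells than in BT474-Var1 ones by 1.33 ± 0.16 (adjusted p = 0.00589). With normexp this APCDD1 difference was 0.48, still past the test. ROR2, a receptor of WNT5A, was above background on the Control arrays alone, at -4.10 and -3.58, against -6.03 to -4.86 on the other 4, and entered the test through Control alone. Its passed tests are given no weight, and the one in BT474-Var1 cells was lost with normexp (adjusted p = 0.354). WLS, which carries Wnt ligands to the cell surface, had probes that went both ways, with differences of BT474-Var4 from BT474-Var1 of -1.36 ± 0.25 (adjusted p = 0.0156; up to 0.0673 without any one of the 4 arrays compared), -0.76 ± 0.19 and 0.72 ± 0.08. TLE1, a Groucho co-repressor, was higher in BT474-Var4 cells than in BT474-Var1 ones on 4 probes. A further, dim probe, which entered the test through BT474-Var1 alone, read -3.56 and -3.55 there and -5.01 and -4.87 in BT474-Var4 cells. The pathway counts dropped by more than 1.5 times without single arrays: from 26 to 17 for BT474-Var1 without Control B or BT474-Var1 A, from 15 to between 5 and 7 for BT474-Var4 without any one Control or BT474-Var4 array, and from 33 to between 18 and 20 for the difference of the variants without BT474-Var4 B, BT474-Var1 A or BT474-Var1 B.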

How the data were processed

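Cy3-labeled RNA of Control, BT474-Var1 and BT474-Var4 cells was measured on Agilent arrays of a single color, 2 per group. The authors quantified spots with Feature Extraction 11.5.1.1, and the deposited files hold each array's background-subtracted intensity on a linear scale. A deposited table holds the authors' log2 values after a shift to the 75th percentile. The file headers give another array design than the methods and place probes on hg19. Here the processed intensity was log2-transformed, shifted by the 75th percentile over that array's probes without controls, with outlier spots left out (1 member spot, of WNT10A on BT474-Var4 A) and the spots of each probe averaged. Saturation touched 0 member probes. Tested probes (31858, 54.7%) were well above background on every array of 1 group or more. They were fitted with limma 3.58.1 in R 4.3.3, with a mean per group over all 6 arrays, 3 residual degrees of freedom and Benjamini-Hochberg adjustment. Well above background were 47.6% to 57.5% of probes per array, and precision is limited by how few arrays there are. The steps were tested on simulated data. Members, gene lists and tests were chosen with earlier results of these data known. Genes were named by rule: every member is accounted for, array values are given for member probes past the test and the brightest of each role, and other pathway genes are named where past the test and 2-fold. Alternatives were normexp correction (offset 50), quantile normalization, the deposited table, no filter or one on all 6 arrays, a replicate block, a robust trend, the methods' one-way analysis of variance, each array left out and only the groups compared. Replicate letters did not pair the samples.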

Additional observations from a re-analysis of the deposited data

Results flagged for a closer look

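Some probes of members that could not be tested were well above background on an array of a variant population and on neither Control array, and none of these differences was tested. WNT1 reached -0.342 on BT474-Var1 B on one of its probes, beside -5.92 on BT474-Var1 A and -6.24 and -6.53 on the Control arrays, and its other probe was above background on Control B at -3.82 and on BT474-Var4 A at -3.47 only. WNT5A, a ligand of the beta-catenin-independent branch, lay at -3.9953 on BT474-Var1 B, beside -4.40 on BT474-Var1 A and -5.33 and -6.15 in Control. WNT5B lay at -3.3761 on BT474-Var4 A, beside -3.52 on BT474-Var4 B, and at -2.7068 on BT474-Var1 B, beside -5.95 on BT474-Var1 A. Its Control arrays read -5.54 and -5.74. WNT8B lay at -2.714 on BT474-Var1 A, beside -6.17 on BT474-Var1 B. DKK4, an antagonist of LRP5 and LRP6, lay at -3.2686 on BT474-Var1 B, beside -4.32 on BT474-Var1 A. For each of these probes 1 of the 2 arrays of a population named was above background, and for WNT1, WNT5A, WNT5B and DKK4 in BT474-Var1 cells that array was BT474-Var1 B.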

How the results depend on the processing

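No passed change of a member reversed its direction under any alternative. Under every alternative that gave a value, 7 of 21 passed probes remained past the test in BT474-Var1 against Control (WNT6, WNT11, FZD8, DKK1, LEF1 and both ZNRF3 probes), 3 of 12 in BT474-Var4 against Control (WNT4, WNT6 and LEF1) and 8 of 21 between the variants (WNT4, WNT6, WNT11, FZD2, FZD8, DKK1, LEF1 and a TCF7L2 probe). Without a filter on dim probes the counts fell to 7, 3 and 9. Leaving out 1 array gave 10 to 20 for BT474-Var1 (10 without Control A, 13 without Control B), 5 to 10 for BT474-Var4 (5 without any one Control or BT474-Var4 array) and 1 to 2 for its 2-fold count (2 without either BT474-Var4 array). Of the 54 calls of member probes over the 3 comparisons, 4 were lost with normexp, 4 after quantile normalization, 4 with the robust trend, 9 with only the groups compared, 12 with the methods' analysis of variance and 36 with no filter. With normexp 27 of the 54 log2 changes were over 1.5 times smaller, and after quantile normalization 2. With normexp the 2-fold counts were 0 for BT474-Var4 against Control and 3 between the variants. Quantile normalization gave 17 higher and 5 lower between the variants, beside 14 and 7. With the replicate letter as a block, which the labels do not tie to a shared batch (correlations of deviations -0.0153 to 0.0451), 20, 8 and 19 probes passed and 7 of the 54 calls were lost. The same alternatives were applied to the pathway lists after their values were seen: no filter gave 11, 2 and 13 probes, BT474-Var4 against Control gave 23 with normexp and 23 with the robust trend, and leaving out 1 array gave 17 to 27, 5 to 12 and 18 to 28. The cause of these shifts was not tested. Arrays of 2 per group and probes near background, such as SFRP1, WNT9A and AXIN2, limit what could be measured.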
